A study of Mus musculus with 16 samples.

Results

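Egr1, Egr2, Egr3, Nr4a1, Nr4a2, Nr4a3, Ier2, Ier3, Zfp36 and Klf6 are immediate early genes, and their expression was followed in mouse macrophages during the first 72 h of osteoclast differentiation. They are 10 of the 22180 genes measured by at least 1 array feature with a single gene symbol. Each of the 10 was measured by 1 such feature, so the rule of keeping the feature with the highest mean made no choice among them. Of the 10, 9 passed the filter on dim genes (the lowest 30% of genes by mean, up to 4.34 log2) and were tested among 15526 genes. Nr4a3 did not pass that filter, and its values are given without a call.

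The cells were bone marrow-derived macrophages from male C57BL/6 mice of 5 weeks, cultured with macrophage colony-stimulating factor (M-CSF). RANKL, the cytokine that drives macrophages to become bone-resorbing osteoclasts, was added together with the dimethyl ester of α-ketoglutarate (αKG, a metabolite of the tricarboxylic acid cycle) at 1 mM or with DW, as the control treatment is labelled. The αKG arrays fall into 4 phases, which the labels call fast for 0.5 and 1 h, early for 3 and 6 h, intermediate for 12 and 24 h, and late for 48 and 72 h. The DW arrays cover the last 3 of these phases, and 2 arrays at 0 h come from cells given M-CSF and DW with no RANKL. Each condition and time after 0 h was a single array, so a group of 2 arrays holds 2 neighbouring times, and the spread within it is partly time. Nothing in the labels says whether arrays came from separate animals or cultures, so p-values measure the spread between these arrays.

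Immediate early genes are transcribed within minutes of a signal, without new protein synthesis, because the factors that switch them on (SRF with its ETS-family partners, CREB and NF-κB) are already in the cell. Most of their transcripts decay quickly, which gives a pulse. In macrophages both M-CSF, through ERK, and RANKL, through NF-κB, are known to switch on genes of this kind. EGR and KLF proteins are zinc finger transcription factors, NR4A proteins are orphan nuclear receptors, and ZFP36 (tristetraprolin) binds AU-rich elements in cytokine transcripts and promotes their decay.

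All values are log2 expression values as deposited, and differences are on the log2 scale, where 1 unit is 2-fold. The 2 arrays at 0 h differed from each other by an SD of 0.196 log2 over all tested genes, and by 0.00 (Klf6) to 0.36 (Egr3) log2 among the 10 genes. The 72 h DW array was the least similar to the rest, with a mean correlation of 0.928 with them, against 0.960 to 0.975 for the remaining arrays. Macrophage markers were high throughout (8 of 8 measured, mean 10.2 to 11.1 log2 per array). Mean levels of the 8 osteoclast markers were 9.52 with αKG and 11.3 with DW at 72 h, and lay between 5.09 and 5.51 on the arrays up to 6 h of both arms. The mean of 8 neutrophil markers was 7.66 and 7.59 on the fast αKG arrays, against 7.91 and 7.86 at 0 h, and it was 5.14 with αKG and 5.06 with DW at 72 h. Markers of other cells were low on all arrays, with means of 4.76 to 5.89 for B cells (5 of 6 measured), 4.09 to 4.41 for T and NK cells (7 of 7, of which 2 past the filter), 5.0 to 5.45 for stromal cells and osteoblasts (8 of 8) and 3.78 to 4.13 for mast and erythroid cells (4 of 6). The part of these markers in the results below was not tested.

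The first question was what the 10 genes did in the first hour of RANKL with αKG. At 0.5 h Egr1 stood 4.10-fold, Zfp36 2.93-fold, Ier3 2.47-fold and Ier2 2.17-fold above the 0 h mean. Egr2 and Nr4a1 stood 0.52 and 0.46 log2 above it, and Egr3 (0.16), Klf6 (0.04), Nr4a2 (-0.04) and Nr4a3 (-0.28) were nearer to it or below it. Thus 4 of the 10 genes were at least 2-fold higher at 0.5 h, a size reached by 24 of the 15526 tested genes (0.155%), and 0 of the 10 were at least 2-fold lower (0.0129% of all genes). At 1 h, 2 of the 10, Ier3 and Zfp36, were at least 2-fold higher (0.419% of all genes), and all 10 lay above the 0 h mean (49.5% of all genes), Nr4a3 by 0.01 and Nr4a2 by 0.03. In RNA from whole cultures, a change in the share of a cell type and a change in RNA per cell cannot be told apart.

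**Figure D1:**
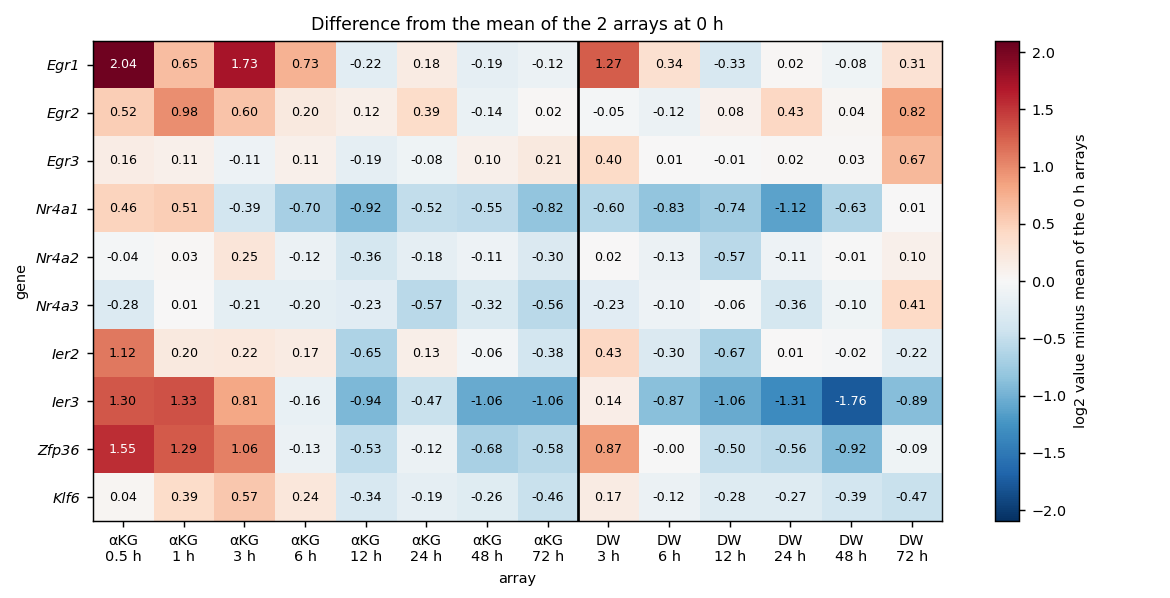
Difference of each array from the mean of both 0 h arrays, in log2 units, for the 10 genes (rows) on the 8 αKG arrays and the 6 DW arrays (columns, each arm in order of time). Red is higher and blue lower than at 0 h; the highest cell is Egr1 at 0.5 h with αKG (2.04) and the lowest is Ier3 at 48 h with DW (-1.76).

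Zfp36 (chromosome 7, 28376784 to 28379228, GRCm38.p6) had the highest group difference of the first hour among the 10 genes. From 0.5 to 72 h with αKG it measured 10.71, 10.45, 10.22, 9.03, 8.63, 9.04, 8.48 and 8.58 log2. With DW it measured 9.22 and 9.10 at 0 h, then 10.04, 9.16, 8.66, 8.60, 8.24 and 9.07 from 3 to 72 h. Both fast αKG arrays lay above every DW array, and at 6 h both arms stood near the 0 h level. The fast αKG mean was 10.58, against 9.16 at 0 h, a difference of 1.42 ± 0.39 (SE), which did not pass (adjusted p = 0.902, limma, fit of all 8 groups). In a fit of those 2 groups alone, which called 96 of all tested genes, the same difference passed (adjusted p = 0.000371, limma). Over the alternatives the adjusted p of this difference ran from 0.000371 to 1. The 250 bases before its start are shown because they carry letters that match the factors named above. Capitals mark a CArG box (the SRF motif) at -58 to -49, the ETS core CCGGAAG at -92 to -86 and the EGR site GCGNGGGCG at -105 to -97, counted from the start of transcription, in the RefSeq promoter table (GRCm38.p6, chr7:28379229-28379478, minus strand).

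Zfp36 promoter: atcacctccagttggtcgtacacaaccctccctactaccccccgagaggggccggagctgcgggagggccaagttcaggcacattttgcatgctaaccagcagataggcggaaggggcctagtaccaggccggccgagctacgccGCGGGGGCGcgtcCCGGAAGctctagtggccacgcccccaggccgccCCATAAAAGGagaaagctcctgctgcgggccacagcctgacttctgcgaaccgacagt

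Ier3 (chromosome 17, 35821713 to 35822911), a stress-induced regulator of cell survival, was also high in the first hour with αKG. From 0.5 to 72 h with αKG it measured 9.92, 9.94, 9.42, 8.45, 7.67, 8.14, 7.55 and 7.55 log2. With DW it measured 8.60 and 8.62 at 0 h, then 8.75, 7.74, 7.55, 7.30, 6.85 and 7.72 from 3 to 72 h. Its highest values were those of the first hour; with DW at 3 h it stood 0.14 above the 0 h mean, where Zfp36 stood 0.87 above its own, and from 6 h on every array of both arms lay below both 0 h arrays. The fast αKG mean was 9.93, against 8.61 at 0 h, a difference of 1.32 ± 0.38 that did not pass (adjusted p = 0.981, limma). It passed in a fit of those 2 groups, which called 96 of all tested genes (adjusted p = 0.000167, limma, range over the alternatives 0.000167 to 1). In the 250 bases before its start (RefSeq, GRCm38.p6, chr17:35821463-35821712, plus strand), shown because NF-κB acts downstream of RANKL, capitals mark an NF-κB site on the minus strand at -92 to -83.

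Ier3 promoter: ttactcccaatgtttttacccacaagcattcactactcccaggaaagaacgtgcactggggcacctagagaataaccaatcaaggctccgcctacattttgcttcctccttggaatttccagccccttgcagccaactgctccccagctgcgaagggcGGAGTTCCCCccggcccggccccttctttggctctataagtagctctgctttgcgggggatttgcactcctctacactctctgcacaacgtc

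Egr1, a zinc finger factor induced through ERK and SRF, had the highest single value above 0 h. From 0.5 to 72 h with αKG it measured 7.53, 6.14, 7.22, 6.23, 5.28, 5.67, 5.31 and 5.37 log2. With DW it measured 5.62 and 5.37 at 0 h, then 6.77, 5.83, 5.17, 5.52, 5.41 and 5.81 from 3 to 72 h. The 0.5 h array was 2.04 log2 (4.10-fold) above the 0 h mean, the value ranked 3 of 15526 genes on that array; the 1 h array was 0.65 above it and the 3 h array 1.73 above it. The values therefore did not run in one direction over the first 3 h, and with 1 array at each time the dip at 1 h has no replicate. With DW the 3 h array was 1.27 above 0 h, and Egr1 was the 1 gene of the 10 to be at least 2-fold higher there (1.06% of all genes). The fast αKG mean was 6.84, against 5.50 at 0 h, a difference of 1.34 ± 0.45 (adjusted p = 1, limma).

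Ier2 (chromosome 8, 84661331 to 84662852), a small nuclear protein gene, was high on a single array. With αKG it measured 7.57, 6.66, 6.68, 6.62, 5.81, 6.58, 6.39 and 6.07 log2 from 0.5 to 72 h. With DW it measured 6.46 and 6.45 at 0 h, then 6.89, 6.15, 5.79, 6.46, 6.44 and 6.23 from 3 to 72 h. Both arms had their lowest value at 12 h. The fast αKG difference from 0 h was 0.66 ± 0.35 (adjusted p = 1, limma).

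Nr4a1 (chromosome 15, 101253902 to 101274795), which encodes the nuclear receptor NUR77, was lower after the first hour. Both fast αKG arrays (6.95 and 7.0 log2) lay above both 0 h arrays (6.61 and 6.37). From 3 to 72 h with αKG it measured 6.10, 5.79, 5.57, 5.97, 5.93 and 5.66, all below 0 h. From 3 to 72 h with DW it measured 5.88, 5.65, 5.75, 5.36, 5.86 and 6.50, so the DW array at 72 h alone returned to the 0 h range. The early αKG mean was 5.94, against 6.97 for fast αKG, a difference of -1.03 ± 0.23 that did not pass (adjusted p = 0.198, limma, 0.116% of all genes called). It passed in a fit of those 2 groups, which called 191 of all tested genes (adjusted p = 0.0277, limma, range over the alternatives 0.0277 to 0.868). The intermediate DW mean of 5.55, against 6.49 at 0 h, gave -0.93 ± 0.23 (adjusted p = 0.118, limma). The early DW mean of 5.77 gave -0.72 ± 0.23 (adjusted p = 0.405, limma). In a fit of those 2 groups, which called 775 of all tested genes, the early DW difference had an adjusted p of 0.0233 (limma, range over the alternatives 0.0233 to 1). The promoter window of Nr4a1 (RefSeq, GRCm38.p6, chr15:101266596-101266845, plus strand, before a start that lies inside the annotated gene) is shown for its cyclic AMP response element (CRE) cores, TGACG on either strand. Capitals mark 4 of them, at -233 to -229, -213 to -209, -69 to -65 and -40 to -36, and an EGR site at -60 to -52.

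Nr4a1 promoter: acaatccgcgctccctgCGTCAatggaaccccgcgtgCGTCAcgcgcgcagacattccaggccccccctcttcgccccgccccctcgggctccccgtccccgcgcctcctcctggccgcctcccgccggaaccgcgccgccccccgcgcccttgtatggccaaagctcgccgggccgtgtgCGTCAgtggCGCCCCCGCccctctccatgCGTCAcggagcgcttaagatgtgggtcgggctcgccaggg

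Egr2 (chromosome 10, 67534469 to 67542188), a zinc finger factor with a part in macrophage development, reached its highest αKG value at 1 h. With αKG it measured 6.01, 6.47, 6.10, 5.70, 5.62, 5.89, 5.36 and 5.51 log2 from 0.5 to 72 h. With DW it measured 5.64 and 5.35 at 0 h, then 5.45, 5.37, 5.58, 5.93, 5.53 and 6.32 from 3 to 72 h. The 3 αKG arrays up to 3 h lay above both 0 h arrays and the DW array at 3 h did not. The fast αKG difference from 0 h was 0.75 ± 0.26 (adjusted p = 1, limma). Of the 5 start sites listed for Egr2, 4 have a CArG box within 250 bases. For 3 of these 4, whose windows overlap, it is the same box, CCATATATGG. The window printed, the first by position of those with the most marked motifs (RefSeq, GRCm38.p6, chr10:67537619-67537868, plus strand), has capitals for the CArG box at -72 to -63 and CRE cores at -111 to -107 and -55 to -51.

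Egr2 promoter: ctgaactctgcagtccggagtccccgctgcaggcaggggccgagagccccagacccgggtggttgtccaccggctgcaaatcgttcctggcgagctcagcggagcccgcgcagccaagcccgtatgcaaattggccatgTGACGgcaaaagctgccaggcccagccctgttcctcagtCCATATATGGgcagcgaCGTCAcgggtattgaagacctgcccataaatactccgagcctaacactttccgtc

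Across all 32851 promoter windows of 250 bases in that table, a CArG box occurred in 1.47%, the EGR site in 4.7%, the NF-κB site in 7.25%, the ETS core in 6.91% and at least 1 CRE core in 17.8%. At least 4 CRE cores occurred in 0.137% of the windows, and Nr4a1, Nr4a2 and Nr4a3 each had 4. The full CRE (TGACGTCA, 1.55% of windows) and the AP-1 site TGANTCA (6.75%) were found in 0 of the 11 windows of the 7 matched genes. Both strands were searched, the CRE core is part of the full CRE, and a match describes letters and not a bound site. Klf6 had none of these motifs.

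Klf6 (chromosome 13, 5861489 to 5870393), a Krüppel-like zinc finger factor, had its highest value at 3 h with αKG. With αKG it measured 9.82, 10.16, 10.35, 10.02, 9.44, 9.59, 9.52 and 9.32 log2 from 0.5 to 72 h. With DW it measured 9.78 on both arrays at 0 h, then 9.95, 9.66, 9.50, 9.50, 9.39 and 9.31 from 3 to 72 h. The early αKG mean was 10.18, against 9.78 at 0 h, a difference of 0.41 ± 0.16 (adjusted p = 0.492, limma), and the late DW mean of 9.35 differed from 0 h by -0.43 ± 0.16 (adjusted p = 0.15, limma).

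For each of the remaining 3 genes, the fast αKG difference from 0 h was smaller in size than its SE. Mean values over the 16 arrays were 4.93 for Egr3, 5.33 for Nr4a2 and 4.18 for Nr4a3, where array medians were 4.84 to 4.93. Whether a change would register at such levels was not tested. Egr3 (chromosome 14, 70077317 to 70082613), an EGR family factor, ranged from 4.65 to 5.05 log2 on the αKG arrays and from 4.66 to 5.51 on the DW arrays, 0 h included, with the highest value on the DW array at 72 h. Nr4a2 (NURR1, chromosome 2, 57106830 to 57124003) ranged from 5.06 to 5.67 with αKG and from 4.86 to 5.53 with DW. Nr4a3 (NOR1, chromosome 4, 48045078 to 48086447) ranged from 3.79 to 4.37 with αKG and from 4.0 to 4.77 with DW. Their fast αKG differences from 0 h were 0.14 ± 0.20 for Egr3, -0.01 ± 0.17 for Nr4a2 and, in a fit with no filter, -0.14 ± 0.19 for Nr4a3 (adjusted p = 1 for each, limma).

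**Figure D2:**
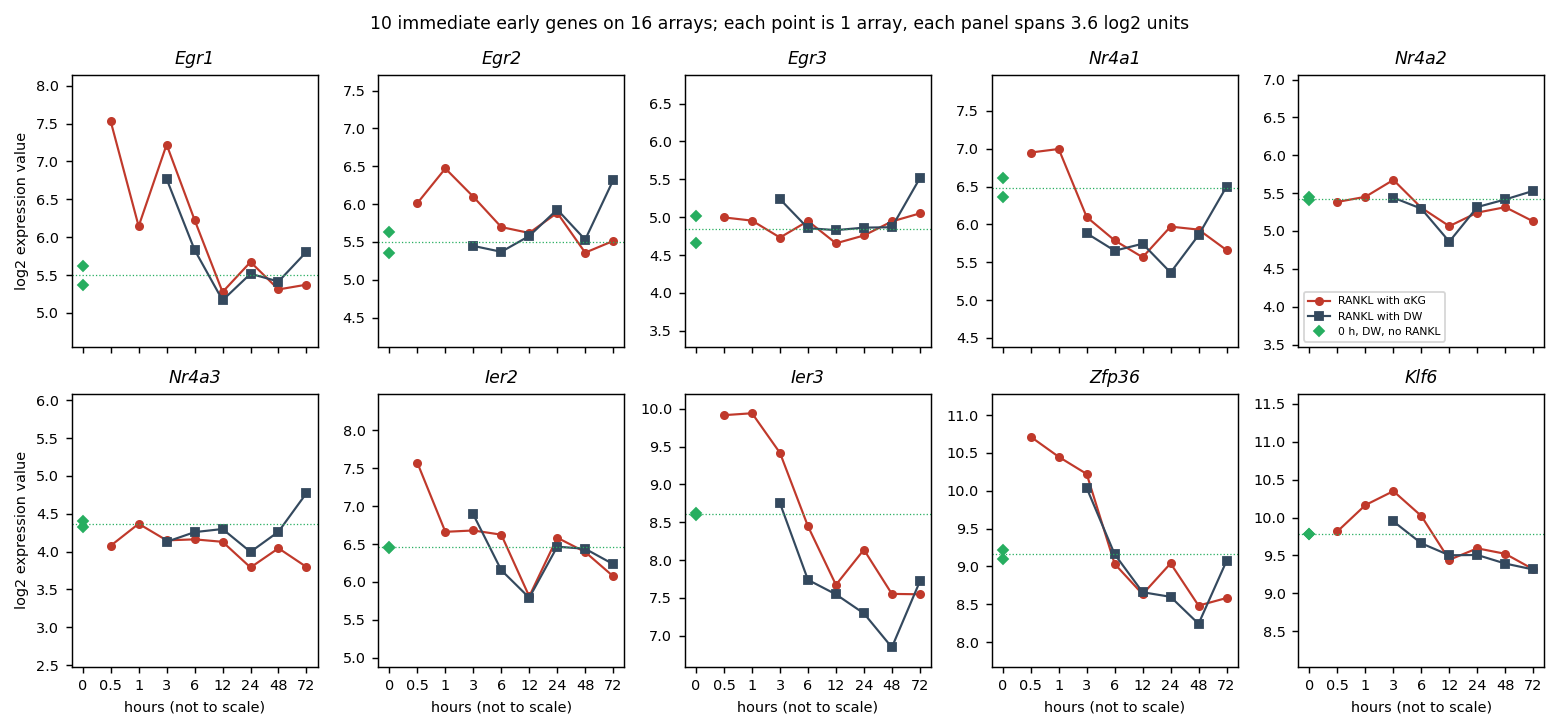
Log2 expression value of the 10 genes against time in hours (spaced evenly, not to scale), with αKG in red circles, DW in dark squares and the 2 arrays at 0 h in green diamonds; each point is 1 array, the dotted line is the 0 h mean, and every panel spans the same number of log2 units. Zfp36 and Ier3 are highest in the first hour and lie at or below the 0 h level from 6 h on. Nr4a2 (0.82), Egr3 (0.86) and Nr4a3 (0.98) span less than 1 log2 unit over the 16 arrays.

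In the fit of all 8 groups, 0 of the 9 tested genes passed in fast αKG against 0 h (limma), as did 0 of all tested genes, and 4 of the 9 (Zfp36, Ier3, Egr1 and Egr2) had an unadjusted p under 0.05, against 3.48% of all genes. The median difference of the 9 was 0.66 log2, and it was -0.01 over all tested genes. The fast αKG arrays differ from 0 h in RANKL, αKG and time in culture together, and no DW array of the first hour was analysed here, so the 3 cannot be told apart.

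From 3 h on, both arms can be set against 0 h. In early arrays 0 of the 9 genes passed with αKG (0.502% of all genes called) and 0 with DW (0.341%). Egr1 had the highest early values, 1.23 ± 0.45 with αKG (adjusted p = 0.433) and 0.80 ± 0.45 with DW (adjusted p = 0.968, limma). By single array, 2 of the 10 genes, Egr1 and Zfp36, were at least 2-fold higher at 3 h with αKG (1.11% of all genes), and 0 were at 6 h with αKG (1.17%) or with DW (1.34%).

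In late arrays Ier3 had the lowest group mean relative to 0 h of the 9 genes in both arms. Its late difference was -1.06 ± 0.38 with αKG (adjusted p = 0.272; 0.0416 in a fit of those 2 groups; range over the alternatives 0.0416 to 0.682, limma) and -1.33 ± 0.38 with DW (adjusted p = 0.064; range over the alternatives 0.0552 to 0.258, limma). In late DW arrays 0 of the 9 genes passed, where 6.64% of all genes were called, and in late αKG arrays 0 passed, where 1.43% were. Egr3 stood at 0.35 in late DW against 0 h (adjusted p = 0.363, limma). Without the 48 h DW array the late DW arm is the 72 h array alone, and Egr3 then stood at 0.67. That array is the one least similar to the rest, and no p is given for it. In intermediate arrays 0 of 9 passed with αKG (0.67% of all genes) and 0 with DW (0.779%). By single array, Ier3 was at least 2-fold below 0 h with αKG at 48 h (1.38% of all genes) and at 72 h (2.25%). With DW it was so at 12 h (1.78%), at 24 h together with Nr4a1 (1.38%), and at 48 h (2.53%).

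The last question was how αKG and DW differed at matched times. In early arrays Ier3 (0.69 ± 0.21 log2) and Klf6 (0.38 ± 0.09) were higher with αKG; Egr1 and Egr2 were higher early and lower late, and none of these differences passed (limma). Over the 6 matched times 0 of the 9 genes passed (0.399% of all genes called), with 1 (Ier3) at an unadjusted p under 0.05, against 13.3% of all genes. These comparisons and those with 0 h share arrays, so their values are not independent of each other.

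Ier3 was higher with αKG at 5 of 6 times. From 3 to 72 h the αKG minus DW differences were 0.67, 0.71, 0.13, 0.84, 0.71 and -0.17 log2. Its mean was 8.13 with αKG and 7.65 with DW, a difference of 0.48 ± 0.13 (adjusted p = 0.166, limma, time as a block). Ier3 also stood at 0.48 ± 0.21 in intermediate arrays (adjusted p = 0.528, limma; 0.0966% of all genes called, and 0 of the 9). Without the 72 h pair the difference over the remaining times was 0.61 and passed (adjusted p = 0.0247; range over the alternatives 0.0247 to 0.722, limma).

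Klf6 was higher with αKG by 0.40 at 3 h and 0.36 at 6 h, and by -0.06 to 0.13 at the later times. The early mean was 10.18 with αKG and 9.80 with DW, a difference of 0.38 ± 0.09 (adjusted p = 0.187, limma; 0.161% of all genes called, and 0 of the 9). It passed in the fits without the 48 h pair (adjusted p = 0.0448) and without the 72 h pair (adjusted p = 0.0471), where the early difference itself was the same; the range over the alternatives was 0.0448 to 1.

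Egr2 stood higher with αKG in early arrays and lower in late arrays. In order of time the αKG minus DW differences were 0.65, 0.33, 0.04, -0.04, -0.17 and -0.80 log2. The early mean was 5.90 with αKG and 5.41 with DW (0.49 ± 0.17, adjusted p = 0.429, limma), and the late mean was 5.44 with αKG and 5.92 with DW (-0.49 ± 0.17, adjusted p = 0.153, limma). The late minus early difference was -0.98 ± 0.24 (adjusted p = 0.102, limma; 0.605% of all genes called, and 0 of the 9). Without the 48 h pair the late phase is the 72 h pair alone, with the DW array least similar to the rest, and its spread is taken from the other times. The late minus early difference was then -1.29 and the late difference -0.80, and no p is given because 1 pair has no spread of its own.

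For Egr1 the αKG minus DW differences over the 6 times were 0.46, 0.40, 0.11, 0.16, -0.10 and -0.43 log2, above 0 up to 24 h and below 0 after it. Its early mean was 6.73 with αKG and 6.30 with DW (0.43 ± 0.13, adjusted p = 0.358, limma), and its late minus early difference was -0.69 ± 0.18 (adjusted p = 0.127, limma). With the 72 h pair alone as the late phase, the late minus early difference was -0.86, and no p is given for that fit.

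**Figure D3:**
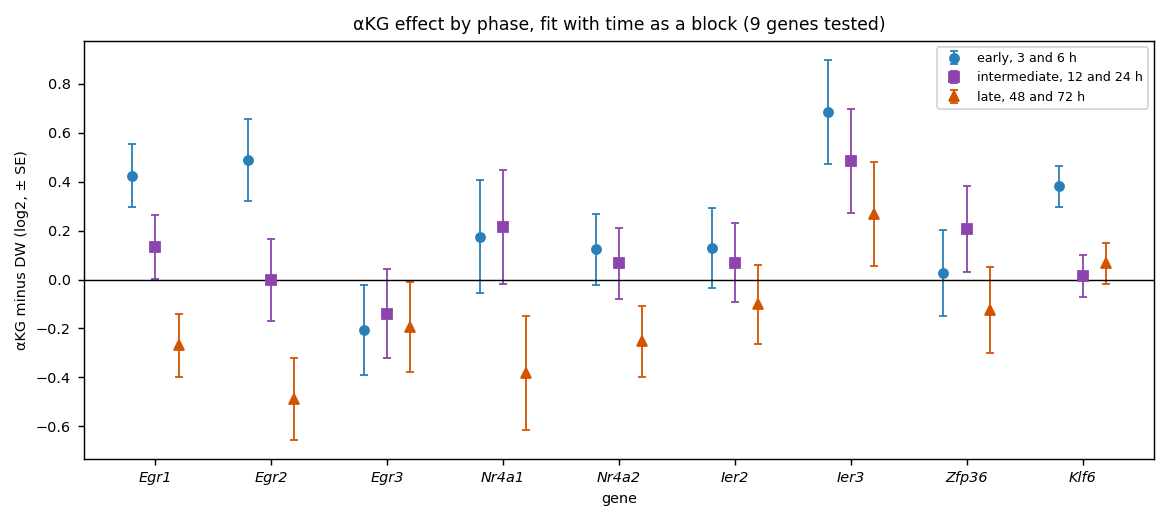
αKG minus DW in log2 units (y axis, bars ± SE) for the 9 tested genes (x axis) in early (blue circles), intermediate (purple squares) and late (orange triangles) arrays, from the fit with time as a block. As phase means, Egr1, Egr2, Nr4a1, Nr4a2, Ier2 and Zfp36 lie above 0 early and below 0 late, a pattern not counted over all genes. Of these, Ier2 and Zfp36 lie within 1 SE of 0 in both phases, and Nr4a1 and Nr4a2 do in the early phase. Only Egr1, Egr2 and Nr4a2 show these signs at both times of each phase, as 7.32% of all tested genes do. Nr4a2 stood at 0.01 at 6 h. Ier3 lies above 0 in each phase (0.69, 0.48 and 0.27), and no difference passed the adjusted threshold.

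Zfp36, the gene with the highest fast αKG difference from 0 h, measured 10.22 with αKG and 10.04 with DW at 3 h. Its difference over the 6 times was 0.04 ± 0.11 (adjusted p = 0.925, limma), and single times ran from -0.49 at 72 h to 0.44 at 24 h. Ier2 likewise stood at 0.03 ± 0.09 over the 6 times (adjusted p = 0.926, limma). Nr4a1 was 0.61 higher with αKG at 24 h and 0.84 lower at 72 h. Its late difference of -0.38 ± 0.23 (adjusted p = 0.421, limma) is the mean of 0.07 at 48 h and -0.84 at 72 h. For the 72 h pair alone the spread would have to be taken from the other times, so no p is given for it. In late arrays 4.27% of all genes were called and 0 of the 9.

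At 72 h, 9 of the 10 genes were lower with αKG than with DW, against 46.9% of all tested genes, and Klf6 stood at 0.00. At 3 h and again at 6 h, 8 of the 10 were higher with αKG, against 46.4% and 49.2% of all genes. The differences at 72 h went down to -0.98, for Nr4a3 (3.80 with αKG, 4.77 with DW), which is below the filter on dim genes. Among the tested genes they went down to -0.84, for Nr4a1. They rest on 1 DW array, the one least similar to the rest. On that array 8 of the 10 genes were higher than at 48 h with DW (48.5% of all genes), by up to 0.87 for Ier3, 0.83 for Zfp36 and 0.78 for Egr2; with αKG 4 of the 10 were higher at 72 h than at 48 h (48.1% of all genes), by up to 0.15. At each of the 6 times, 0 of the 10 genes differed 2-fold between the arms, with 0.0773% to 1.78% of all genes at least 2-fold higher or lower at a given time.

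**Figure D4:**
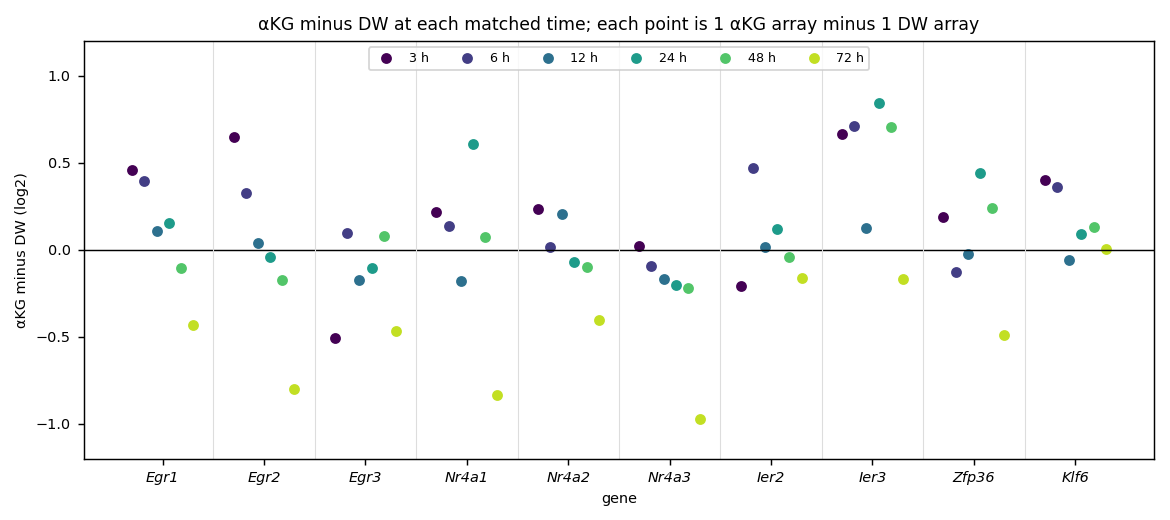
αKG minus DW in log2 units (y axis) for the 10 genes (x axis) at the 6 matched times, from 3 h (dark) to 72 h (yellow); each point is 1 αKG array minus 1 DW array. The 72 h points are the lowest of the 6 for 7 of the 10 genes, and all points lie within 1 log2 unit of 0.

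Other immediate early genes were read from a list of 35, of which 34 were tested. In fast αKG arrays limma called 0 of the 34 (0 of all genes). An unadjusted p under 0.05 was found for 9, against 3.48% of all genes, and the median difference was 0.32 log2. The 4 with the smallest p were 2 genes of the IκB family of NF-κB regulators, Nfkbiz (2.08 ± 0.31, adjusted p = 0.253) and Nfkbia (2.13 ± 0.40, adjusted p = 0.437), the AP-1 gene Junb (1.61 ± 0.33, adjusted p = 0.56) and Tnfaip3 (a ubiquitin-editing restraint on NF-κB) at 1.70 ± 0.37 (adjusted p = 0.643, limma). In early αKG arrays 1 passed (0.502% of all genes called): Plk2, a polo-like kinase gene (2.70 ± 0.37 against 0 h, adjusted p = 0.0111, limma). Plk2 was also higher with αKG than with DW in early arrays (1.67 ± 0.23, adjusted p = 0.0366, limma), where 0.161% of all genes were called. In late DW arrays 5 of the 34 rose and 2 fell, where 6.64% of all genes were called. The AP-1 genes Fosl2 (2.53 ± 0.28, adjusted p = 5e-04, limma), Junb (1.66 ± 0.33) and Jund (0.86 ± 0.21) rose. Nfkbia (1.82 ± 0.40) and Egr4 (0.44 ± 0.11, adjusted p = 0.044, limma) rose too, while Rhob (-1.56 ± 0.29) and Atf3 (-1.43 ± 0.28) fell. Egr4 measured 4.43 log2 at 0 h, near the filter at 4.34, and passed in 2 of 11 alternatives. Between the arms in late arrays Dusp1, a MAP kinase phosphatase gene, was higher with αKG (0.60 ± 0.11). So was Klf4, a Krüppel-like factor gene (0.78 ± 0.15). Fosl2 (-1.33 ± 0.16) and Tnfaip3 (-0.75 ± 0.11) were lower with αKG, and 4.27% of all genes were called there. Against the 0 h mean, Fosl2 with αKG stood at 1.10 at 48 h and 1.31 at 72 h. Atf3, a stress-response factor gene, was higher with αKG than with DW over the 6 times (0.70 ± 0.11, adjusted p = 0.0369, limma). Against the 0 h mean, Atf3 with αKG stood at 0.53, 0.55, -0.52, -0.49, -0.89 and -0.50 log2 from 3 to 72 h. Rhob, a small GTPase gene, also fell in late αKG arrays (-1.43 ± 0.29, adjusted p = 0.0401) and in intermediate DW arrays (-1.47 ± 0.29, adjusted p = 0.0496, limma). Zfp36l2, a relative of Zfp36, had a late minus early αKG effect of 0.98 ± 0.17 (adjusted p = 0.0495, limma).

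Among 11 tested upstream factors and partners of the 10 genes, 1 passed in any comparison. Elk3, an ETS partner of SRF, fell in late DW arrays (-1.16 ± 0.23, adjusted p = 0.0127, limma), where 6.64% of all genes were called. Srf itself lay between -0.43 (DW, 72 h) and 0.12 log2 (αKG, 1 h) of the 0 h mean on the 14 later arrays. Nab2, the EGR corepressor, lay 0.30 at 0.5 h and 0.71 at 1 h above the 0 h mean with αKG, and its fast αKG difference was 0.50 ± 0.20 (adjusted p = 1, limma). Among 10 tested AU-rich transcripts of the kind ZFP36 binds, 2 were higher with αKG than with DW in early arrays (0.161% of all genes called). They were the chemokine gene Cxcl2 (1.68 ± 0.13, adjusted p = 0.00666, limma) and the prostaglandin synthase gene Ptgs2 (1.53 ± 0.16, adjusted p = 0.012, limma). Zfp36 RNA stood at 0.03 ± 0.18 there, ZFP36 protein was not measured, and a link to these transcripts was not tested. The chemokine gene Ccl3 fell from 0 h in late DW arrays (-2.63 ± 0.61). Ccl3 was higher with αKG than with DW over the 6 times (1.13 ± 0.16, adjusted p = 0.0306, limma) and in late arrays (1.21 ± 0.25). The late minus early αKG effect of Cxcl2 was -1.59 ± 0.19 (adjusted p = 0.0156, limma). In fast αKG arrays Cxcl1 (1.57 ± 0.28, adjusted p = 0.437) and Cxcl2 (4.13 ± 0.93, adjusted p = 0.752, limma) had the smallest p of the 10 AU-rich transcripts. The 24 calls that passed over the 3 lists kept their sign in every alternative run and passed in 202 of 310 gene and setting pairs; 1 of them, Fosl2 in late DW arrays, passed in each. The calls of Cxcl2, Plk2 and Ptgs2 in early arrays did not pass without the 3 h pair (adjusted p = 0.0614, 0.309 and 0.218, limma) or without the 6 h pair, where the early phase is 1 pair.

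The 10 genes varied together to different degrees over the 16 arrays, which share one time course. Pearson's r was 0.95 between Zfp36 and Ier3, 0.88 between Zfp36 and Egr1, 0.83 between Ier3 and Klf6 and 0.82 between Egr1 and Ier2. It was 0.42 between Egr1 and Egr2 and 0.20 between Egr1 and Egr3, and between Nr4a1 and the other NR4A genes it was 0.50 for Nr4a2 and 0.46 for Nr4a3. Outside the 10, among 13846 named genes, the most similar profiles were Cd83 (r = 0.93) and Cxcl1 (r = 0.92) to Zfp36, Atp7a (r = 0.93) and Pim1 (r = 0.88) to Ier3, and Cxcl1 (r = 0.88) and Cxcl2 (r = 0.86) to Egr1. For Klf6 they were Dusp16 (r = 0.95) and Carhsp1 (r = 0.92), for Ier2 Mybl1 (r = 0.85) and Fhod1 (r = 0.85), for Egr2 Itpkc (r = 0.85) and Camsap2 (r = 0.80), and for Nr4a1 Sipa1 (r = 0.84) and Maco1 (r = 0.82). The genes that vary least had matches too, Larp1b (r = 0.88) and Larp4b (r = 0.86) for Nr4a2, Pdk3 (r = 0.86) and Arfgef2 (r = 0.83) for Nr4a3, and Arhgap29 (r = 0.83) and Tbc1d22bos (r = 0.82) for Egr3.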

How the data were processed

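RNA from cultured macrophages was measured on 16 one-colour whole-transcript arrays (GeneChip WT Terminal labelling, per the labels' protocols). The log2 expression values were used as deposited by the authors; the log2 scale was inferred from their range of 0.61 to 13.25 and array medians of 4.84 to 4.93. How they were normalized and summarised, and on which genome build, is not given in the sources used here. These are array signals, so precision rests on how many arrays there are.

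Of 33793 features, 23521 have 1 gene symbol in the platform annotation, 1814 have several and 8458 are unnamed here. A gene measured by several features was read from the one with the highest mean, which gave 22180 genes. The lowest 30% by mean were left out, which left 15526. limma 3.58.1 in R 4.3.3 was used (lmFit, then eBayes with a trend), with Benjamini-Hochberg adjustment over the 15526 genes and a threshold of 0.05. Each phase was compared with 0 h in a fit of 8 groups of 2 arrays (8 residual degrees of freedom). αKG was compared with DW on 12 arrays at 6 times with time as a block, with 5 residual degrees of freedom over all times and 3 for the 3 phases. Single arrays were read against a 2-fold difference with no p. Alternatives covered the filter, the scaling, the variance model, the choice of feature, the samples fitted, the time block and leaving out each array or pair. The fits were tested on simulated data. Of the 10 genes, 7 matched the RefSeq promoter table (11 windows), and the 250 bases before each start were searched.

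The 10 genes and the gene lists were chosen with earlier results of these data known. Genes outside the 10 were named where they passed the adjusted threshold or, where none of a list did, among the 4 with the smallest p; for likeness, the 2 with the highest correlation were taken, without predicted, clone-named and small RNA genes. The time points pair αKG and DW arrays by the labels, which give no pairing beyond that.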

Additional observations from a re-analysis of the deposited data

Results flagged for a closer look

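For 3 of the 9 tested genes, both early differences between αKG and DW (3 and 6 h) lay above 0 and both late ones (48 and 72 h) below 0, a pattern found in 7.32% of all tested genes. Nr4a2 showed this pattern by a narrow margin, since its 6 h difference was 0.01 log2. That is smaller than the SD of 0.196 log2 between both 0 h arrays over all tested genes. The 48 h differences were smaller in size than this SD too (-0.17 for Egr2, -0.10 for Egr1 and -0.10 for Nr4a2). The late minus early difference was -0.98 log2 for Egr2, -0.69 for Egr1 and -0.38 for Nr4a2. In the test of that difference none passed (adjusted p = 0.102 for Egr2, 0.127 for Egr1 and 0.448 for Nr4a2, limma). Each time is 1 αKG array and 1 DW array, and the 72 h DW array was the least similar to the rest, with a mean correlation of 0.928 with them. Its part in these differences was not tested beyond the fits that leave out a pair. Without the 72 h pair the late minus early difference was -0.66 for Egr2, -0.53 for Egr1 and -0.23 for Nr4a2. Without the 48 h pair the late phase is the 72 h pair alone, and the difference was then -1.29 for Egr2 and -0.86 for Egr1. Over all alternatives the adjusted p of both went up to 0.999.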

How the results depend on the processing

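Of 1481 values of the 9 tested genes under the alternatives, 1468 kept their side of the threshold, 13 passed where the reported fit did not, and 0 called values changed sign. The count of the 9 genes called, 0 in each reported comparison, became 2 for fast αKG against 0 h, 1 for late αKG against 0 h, 1 for early DW against 0 h and 1 for early αKG against fast αKG when only the 2 groups compared were fitted, which leaves fewer arrays to estimate the spread. Among all tested genes that setting called 96 for fast αKG, 775 for early DW and 191 for early against fast αKG. Leaving out an array or a pair can leave a phase with 1 array or pair, which is then assumed to vary like the others. Leaving out an array gave 0 to 1 for late DW against 0 h. Leaving out a pair gave 0 to 1 for αKG against DW over 6 times and in early arrays, and 0 to 2 in late arrays and for late minus early. The count of at least 2-fold differences from 0 h, 15 over the 14 arrays, was 14 to 16. Without the time block, which is the one pairing the labels give, 0 of the 9 genes passed.

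Counts over all tested genes depended more on the setting: from 0 to 96 for fast αKG against 0 h (0 reported), 1 to 794 for early αKG (78), 0 to 136 for intermediate αKG (104), 29 to 242 for late αKG (222), 1 to 775 for early DW (53), 0 to 134 for intermediate DW (121), 115 to 2179 for late DW (1031) and 0 to 191 for early against fast αKG (18). For αKG against DW they ran from 4 to 174 over 6 times (62), 0 to 149 early (25), 0 to 312 intermediate (15), 7 to 1882 late (663) and 0 to 1504 for late minus early (94). The highest counts for late DW, for αKG against DW in late arrays and for late minus early came without the 48 h array or pair. There the late phase is 1 array or pair. One array per time limits each single-array value.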

Other observations

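Nr4a3 lay below the filter on dim genes, with a mean of 4.18 log2. In a fit with no filter its αKG minus DW difference was -0.60 ± 0.19 in late arrays (adjusted p = 0.155) and -0.27 ± 0.12 over 6 times (adjusted p = 0.449, limma), and its late αKG difference from 0 h was -0.44 ± 0.19 (adjusted p = 0.458, limma). It was lower with αKG at 5 of the 6 matched times.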
